A study of Rattus norvegicus with 32 samples.

Results

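The genes described here are 10 genes of Hippo signalling and its YAP-TEAD output in C6 cells, a rat glioma line: the target genes Ctgf, Cyr61, Ankrd1, Amotl2 and Axl, the kinases Lats2 and Stk3, the co-activator Yap1, Tead1 as a DNA-binding partner of YAP, and the scaffold Ajuba. They were chosen by name with the log2 fold changes of these same arrays already known, and their values come from every non-control spot whose gene name was one of the 10. Of the 10, 9 had a probe, 8 under the listed name and Ajuba under its older name Jub, matched by its transcript accession. Cyr61 had no probe under that name and was not analysed here. The 9 genes had 13 of the 30367 probes of the array, whose spots carry 26583 distinct names. A probe entered the tests if 1 or more groups had it well above background in each of their 4 arrays. By this filter 7 of the 9 genes were tested among 13630 genes at 3 h and all 9 among 16446 genes at 6 h. The values of Ankrd1 and Amotl2 at 3 h are therefore given without a test.

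The cells were grown to confluence and sampled in 4 groups. Control cells received no agent. The Ang II group received angiotensin II at 100 nM. The Ang II+Los group received Losartan, an antagonist of the AT1 receptor, at 10 µM for 30 min and then Ang II at 100 nM. The Ang II+PD123319 group received the AT2 antagonist PD123319 at 10 µM for 30 min and then Ang II at 100 nM. Each group was sampled at 3 h and at 6 h with 4 replicates, which gives 32 arrays. The 3 comparisons of the study are called below the Ang II comparison (Ang II minus Control), the Losartan comparison (Ang II+Los minus Ang II) and the PD123319 comparison (Ang II+PD123319 minus Ang II). No group received an antagonist without Ang II, so that an effect of an antagonist alone cannot be told apart from an effect on the response to Ang II. All samples come from 1 cell line, and the labels do not say whether replicates were separate cultures, so that p-values measure only the spread between these samples.

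In Hippo signalling the kinase encoded by Stk3 (MST2) activates the kinase encoded by Lats2, which phosphorylates YAP and keeps it in the cytoplasm. Unphosphorylated YAP enters the nucleus and binds TEAD factors, which carry it to target genes such as Ctgf and Cyr61. Several targets act back on the pathway, among them Lats2 itself and Amotl2, and G protein-coupled receptors are known to feed into it.

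Each replicate number was a slide that carried 1 array of every group, and every treatment lay at the same position on its slides, so that treatment and slide position cannot be told apart. At 3 h slides 1 and 2 were scanned in 1 session and slides 3 and 4 in another, and at 6 h slide 4 was scanned apart from the other slides. Between 55.9% and 64.72% of the spots were well above background at 3 h and between 64.23% and 79.75% at 6 h. The array that stood furthest apart was Ang II+Los at 3 h, replicate 2, with a correlation of 0.957 across genes to the mean of the other arrays. The glial markers S100b, Vim, Nes, Sox2 and Cspg4 were well above background on all 16 arrays of both times, whereas Slc1a3 was not on any array and Gfap was on 0 arrays at 3 h and 2 at 6 h. The summed signal of the glial marker list ranged from 13.42 to 14.19 (log2) over the 3 h arrays and its ranges overlapped between all groups. At 6 h it lay between 13.91 and 14.36 in Control and between 13.95 and 14.11 under Ang II+Los. That range overlapped only narrowly with those of Ang II, 14.10 to 14.31, and Ang II+PD123319, 14.10 to 14.36.

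The promoters below are shown because TEAD factors bind the motif GGAATG, which reads CATTCC on the other strand, and because Ctgf, Yap1, Amotl2 and Ajuba hold it within the 250 bases before their start sites. The sequences are those of RefSeq on GRCr8, 5′ to 3′ on the strand of the gene, with each motif in capitals:
Ctgf (chr1:22624615-22624864, minus strand): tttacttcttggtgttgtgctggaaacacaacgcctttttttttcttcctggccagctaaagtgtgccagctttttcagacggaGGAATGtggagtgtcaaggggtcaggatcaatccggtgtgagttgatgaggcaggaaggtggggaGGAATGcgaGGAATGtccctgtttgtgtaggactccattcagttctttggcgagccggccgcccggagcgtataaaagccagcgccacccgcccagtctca
Yap1 (chr8:13451438-13451687, minus strand): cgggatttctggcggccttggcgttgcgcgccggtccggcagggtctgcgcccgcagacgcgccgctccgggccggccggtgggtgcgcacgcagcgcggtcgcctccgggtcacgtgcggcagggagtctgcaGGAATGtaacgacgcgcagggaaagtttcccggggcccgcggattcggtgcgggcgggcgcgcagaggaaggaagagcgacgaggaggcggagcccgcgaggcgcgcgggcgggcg
Amotl2 (chr8:112182376-112182625, plus strand): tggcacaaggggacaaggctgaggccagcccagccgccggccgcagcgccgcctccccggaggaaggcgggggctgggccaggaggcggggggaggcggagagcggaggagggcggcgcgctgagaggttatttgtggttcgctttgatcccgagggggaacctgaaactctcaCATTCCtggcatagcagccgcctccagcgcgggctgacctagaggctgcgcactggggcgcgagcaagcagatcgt
Ajuba (chr15:32000043-32000292, minus strand): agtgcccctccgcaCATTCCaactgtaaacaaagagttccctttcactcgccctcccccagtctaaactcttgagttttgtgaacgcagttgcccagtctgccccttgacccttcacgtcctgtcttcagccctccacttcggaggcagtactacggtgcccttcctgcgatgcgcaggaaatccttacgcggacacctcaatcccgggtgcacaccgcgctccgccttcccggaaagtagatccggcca
The Ctgf window holds GGAATG 3 times, with first letters 166, 101 and 92 bases before the start. Yap1 holds it once, 116 bases before the start. On the other strand, Amotl2 holds it 76 bases and Ajuba 236 bases before the start. A promoter was matched for 6 of the 10 genes. The window of Cyr61 also holds 1 copy, and that of Axl holds none. Of all 33469 promoter windows, 12.1% hold at least 1 copy on either strand and 0.0807% hold 3 or more. A match is a description of the letters and does not show that a factor binds there.

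Across the list, Ctgf, the classical YAP target, had the lowest log2 fold change of the tested genes in the PD123319 comparison, -0.66 at 3 h and -0.45 at 6 h (standard errors 0.17 and 0.13, n = 4 slides). Yap1 had the lowest in the Ang II comparison at 3 h, -0.40 (standard error 0.13, n = 4 slides). A gene was counted as past both limits when its unadjusted p was under 0.05 and its fold change above 1.2 or below 0.8. The p limit is that of the study, and the fold limits were set for this work. In the Ang II comparison at 3 h, 2 of the 7 tested genes were past both limits, Tead1 higher and Yap1 lower, beside 11.0% of all genes. Tead1 passed the filter through the Ang II and Ang II+PD123319 groups and not through Control, so that its call leans on that filter. In the Losartan comparison at 3 h it was 1 of 7, Lats2 lower, beside 10.1% of all genes. In the PD123319 comparison at 3 h it was 2 of 7, Ctgf lower and Yap1 higher, beside 2.64% of all genes. At 6 h, the Ang II comparison gave 1 of 9, Ajuba higher, beside 11.5% of all genes. The Losartan comparison at 6 h gave 0 of 9 beside 0.900%. Of the 9, Tead1 alone had an unadjusted p under 0.05 there, as 1.99% of all genes did. The PD123319 comparison at 6 h gave 1 of 9, Ctgf lower, beside 3.79%. By limma with Benjamini-Hochberg adjustment, 0 of the genes tested had an adjusted p under 0.05 in these 6 tests, while between 328 and 3533 genes had an unadjusted p under 0.05. These were 2.99% of genes in the PD123319 comparison at 3 h and 1.99% in the Losartan comparison at 6 h. Both shares are below what a limit of 0.05 gives by chance. The other comparisons had between 6.37% and 21.5%. Without the slide as a block, 0 of the listed genes were past both limits in each of the 6 tests. Since the genes were listed with results known, these counts describe them and support nothing further.

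In the Ang II comparison, the median log2 fold change of the tested genes was 0.13 at 3 h and 0.06 at 6 h, beside 0.00 and -0.01 for all genes. In the Losartan comparison it was -0.24 at 3 h and -0.12 at 6 h, beside 0.00 at both times. In the PD123319 comparison it was -0.15 at both times, beside -0.02 and 0.00. The medians of both antagonist comparisons lay below 0, but these comparisons share the Ang II arrays, and a high or low Ang II array moves both. At 6 h, 5 of the 9 genes, Ctgf, Lats2, Tead1, Stk3 and Ajuba, were lower on all 4 slides of the PD123319 comparison, beside 11.4% of all genes. In the Losartan comparison it was 4 of the 9, Ctgf, Lats2, Tead1 and Ajuba, beside 7.21%.

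**Figure D1:**
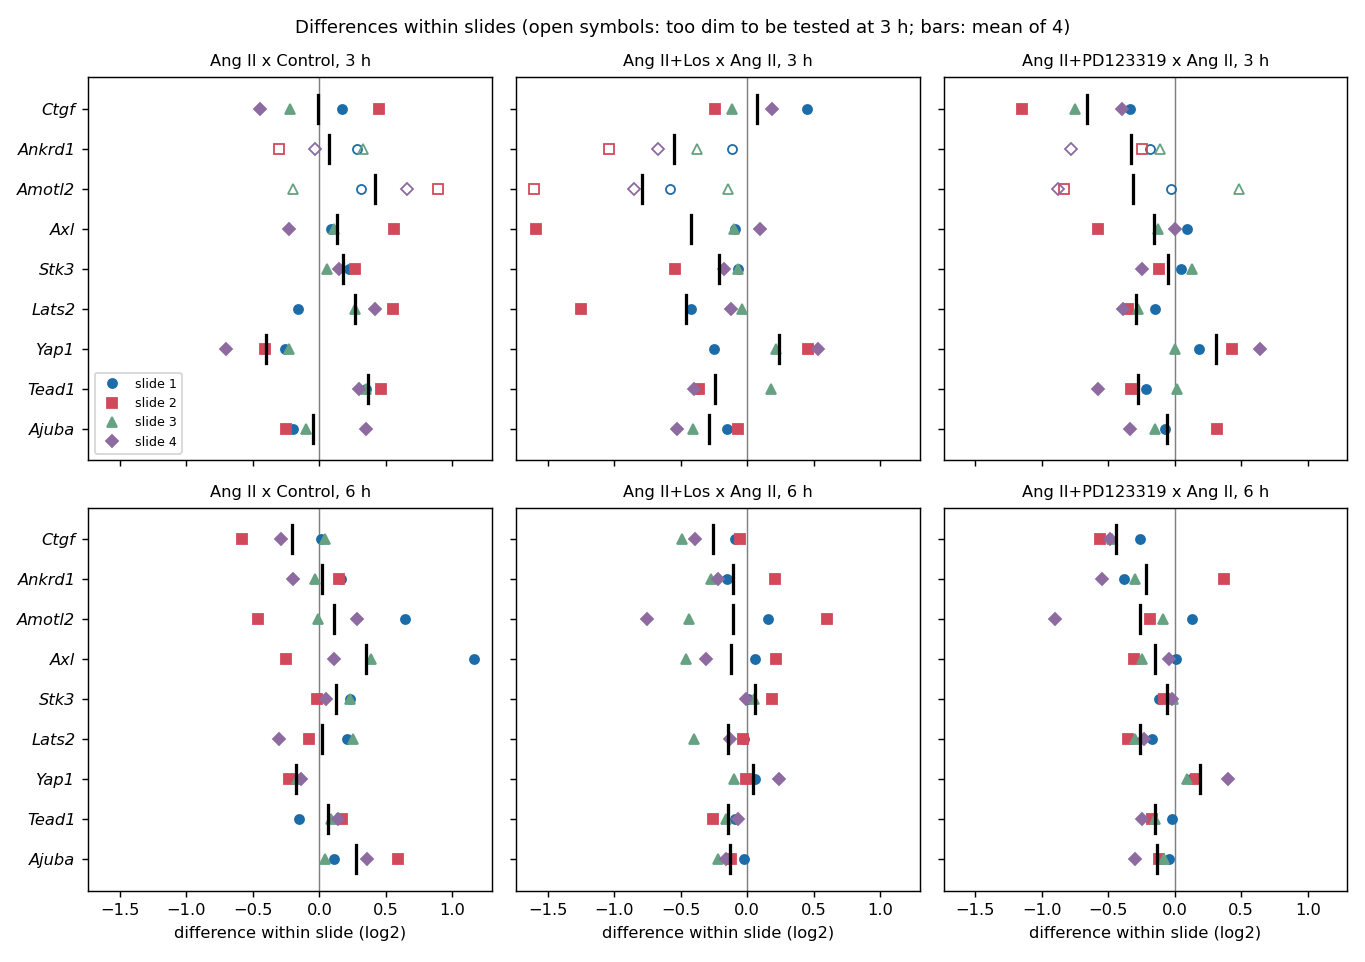
Difference of the log2 signal between the groups of each comparison within each slide (horizontal axis, log2) for the 9 genes with a probe (vertical axis), at 3 h in the upper and 6 h in the lower panels. Symbols are the 4 slides, bars their mean, and open symbols mark genes that were too dim to be tested. All 8 slides place Ctgf below 0 in the PD123319 comparison and Yap1 below 0 in the Ang II comparison.

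Ctgf encodes connective tissue growth factor, a secreted matricellular protein. Its probe lies at chr1:21327574-21327633 on rn4, the build of the array files, on the minus strand, and was printed 10 times on each array. The annotation of rn4 was not used here, so that the exon or UTR under a probe is not given. Over the 32 arrays, the spots of 1 array had a median SD of 0.08 on the log2 scale, and no Ctgf probe was saturated.

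At 3 h, the log2 signal of Ctgf on slides 1 to 4 was 12.61, 11.66, 11.46 and 11.35 in Control. It was 12.78, 12.11, 11.24 and 10.89 under Ang II. Under Ang II+Los it was 13.23, 11.87, 11.13 and 11.08. Slide 1 was the highest in each of these groups, and their ranges overlapped. Under Ang II+PD123319 the values were 12.44, 10.97, 10.48 and 10.49. Each of these was the lowest of its slide, although as a group they overlapped with the other groups. The means were 11.77 ± 0.58 in Control, 11.75 ± 0.85 under Ang II, 11.82 ± 1.00 under Ang II+Los and 11.09 ± 0.92 under Ang II+PD123319 (SD, n = 4 each).

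At 6 h, the log2 signal of Ctgf was 12.89, 12.16, 12.22 and 11.74 in Control. Under Ang II it was 12.90, 11.57, 12.25 and 11.45. Under Ang II+Los it was 12.81, 11.52, 11.77 and 11.06. The level was thus highest on slide 1 and lowest on slide 4 in all 3 of these groups. Under Ang II+PD123319 it was 12.64, 11.01, 11.78 and 10.96, the lowest value on 3 of the 4 slides, while on slide 3 Ang II+Los was lower. The means went down from 12.25 ± 0.47 in Control to 12.04 ± 0.67 under Ang II, 11.79 ± 0.74 under Ang II+Los and 11.60 ± 0.79 under Ang II+PD123319 (SD, n = 4 each). No neighbours in this order were past both limits against each other.

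**Figure D2:**
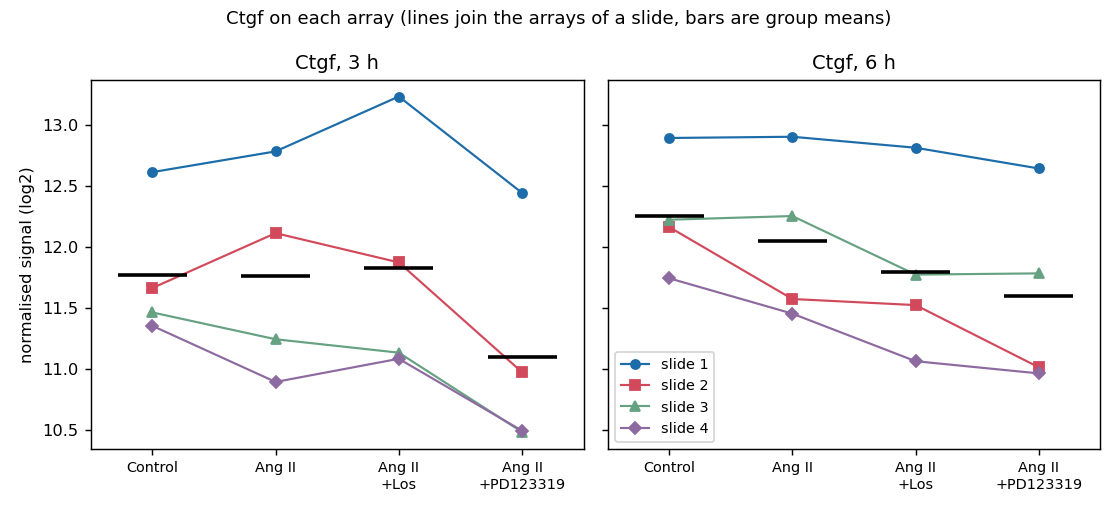
Normalised Ctgf signal (vertical axis, log2) in the 4 groups (horizontal axis) at 3 h (left) and 6 h (right). Lines join the 4 arrays of a slide and black bars are group means. Within each slide the Ang II+PD123319 array lies below the Ang II array, while slides differ by more than the groups do.

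In the PD123319 comparison, Ctgf differed on slides 1 to 4 of 3 h by -0.34, -1.15, -0.75 and -0.40 on the log2 scale. The log2 fold change was -0.66 (standard error 0.17, a fold of 0.633), with an adjusted p of 1 (limma). At 6 h the differences were -0.26, -0.56, -0.47 and -0.49, and the log2 fold change was -0.45 (standard error 0.13, a fold of 0.734), with an adjusted p of 0.526. The mean difference was -0.74 and -0.58 in the scan sessions of 3 h and -0.43 and -0.49 in those of 6 h. The signal was thus lower within every slide and every scan session, yet the adjusted p did not pass. In a bulk culture, fewer cells of a kind and less RNA per cell cannot be told apart. Without the slide as a block, neither time was past both limits, since the standard errors became 0.55 at 3 h and 0.44 at 6 h.

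Ctgf under Ang II alone did not stand apart from Control. Its log2 fold change was -0.01 at 3 h (standard error 0.17) and -0.21 at 6 h (standard error 0.13), with 2 slides higher and 2 lower at each time. Losartan gave 0.07 (standard error 0.17) at 3 h and -0.25 (standard error 0.13) at 6 h against Ang II, with all 4 slides lower at 6 h. Comparisons of the antagonist groups with Control and with each other were added after the data were seen. Against Control, Ang II+PD123319 gave -0.67 at 3 h (standard error 0.17, adjusted p = 0.461, limma). At 6 h it gave -0.65 (standard error 0.13, adjusted p = 0.0407). At 6 h Ctgf was the only gene of the list among the 227 of 16446 genes (1.38%) with an adjusted p under 0.05 in that comparison. That call depends on the settings, because 6 of 12 alternatives had an adjusted p under 0.05. It was 0.173 without replicate 2, 0.0536 without replicate 3 and 0.291 without replicate 4 (limma), with a range of 0.0326 to 0.996 over the 12. Ang II+Los gave 0.06 against Control at 3 h (standard error 0.17) and -0.46 at 6 h (standard error 0.13, adjusted p = 0.0788, limma), with all 4 slides lower at 6 h. The summed signal of 4 fibroblast and pericyte markers lay between 9.07 and 9.57 in Control at 6 h, between 8.6 and 9.11 under Ang II, between 8.82 and 9.05 under Ang II+Los and between 8.87 and 9.12 under Ang II+PD123319. It overlapped with Control by a narrow margin under Ang II and Ang II+PD123319 and not under Ang II+Los. Its part in the Ctgf differences from Control at 6 h was not tested. Of these markers Col1a1 and Pdgfrb were well above background on all 16 arrays, Col3a1 on 15 and Dcn on 0. Read with 1 probe each, Pdgfrb lay between 8.07 and 9.18, Col1a1 between 3.65 and 5.91 and Col3a1 between 2.78 and 4.00. The sum of linear signals is thus weighted to Pdgfrb and does not show that such cells are present in the line. The 6 h sum of 5 microglia and macrophage markers lay between 8.42 and 9.03 in Control and between 8.29 and 8.48 under Ang II. It lay between 8.35 and 8.73 under Ang II+Los and between 8.24 and 8.82 under Ang II+PD123319. The 6 h sums of the neuron, oligodendrocyte and endothelium lists overlapped with Control in every group. The part of these lists was not tested either. Between the antagonists, Ctgf was lower under PD123319 than under Losartan by 0.73 at 3 h (log2 fold change -0.73, standard error 0.17, adjusted p = 0.34), on all 4 slides. At 6 h this difference was -0.19 (standard error 0.13). These comparisons share the Ang II+PD123319 arrays and are no independent evidence of each other.

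Among the other target genes, Ankrd1 encodes a nuclear ankyrin-repeat protein and its probe lies at chr1:240316831-240316890 (minus strand). At 3 h it was well above background on 7 of 16 arrays. Its log2 signal on slide 1 lay between 5.59 and 5.87 in the 4 groups, and on the other slides between 2.87 and 4.22. At 6 h, when all 16 arrays were well above background, the Ankrd1 means were 5.26 ± 0.96 in Control, 5.29 ± 0.96 under Ang II, 5.18 ± 0.83 under Ang II+Los and 5.07 ± 0.76 under Ang II+PD123319 (SD, n = 4 each). The largest 6 h difference was -0.21 in the PD123319 comparison (standard error 0.16), well within the range of the 4 slides, which went from -0.55 to 0.37.

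Amotl2 encodes an angiomotin-family protein that binds YAP at cell junctions, and its probe lies at chr8:107706680-107706739 (plus strand). It was well above background on 9 of 16 arrays at 3 h and on all 16 at 6 h. At 3 h its lowest group was Ang II+Los, with 3.71, 3.17, 3.67 and 3.28, and its highest was Ang II, with 4.28, 4.77, 3.82 and 4.13. These groups did not overlap, but Ang II+Los was well above background on 1 of its 4 arrays, so that its values lie near the floor of the measurement and were not tested. At 6 h the log2 fold changes were 0.11, -0.11 and -0.26 in the Ang II, Losartan and PD123319 comparisons (standard error 0.24 each), and each had slides on both sides of 0.

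Axl encodes a receptor tyrosine kinase of the TAM family and had probes at chr1:80967569-80969294 and chr1:80964817-80964876 (minus strand). Its mean at 3 h was 6.83 ± 0.61 in Control, 6.96 ± 0.76 under Ang II, 6.54 ± 0.57 under Ang II+Los and 6.81 ± 0.66 under Ang II+PD123319 (SD, n = 4 each). The low Ang II+Los mean came with slide 2, where Axl read 6.20 under Ang II+Los, 7.80 under Ang II and 7.24 in Control. Against Ang II the slides gave -0.09, -1.59, -0.10 and 0.10. The log2 fold change of -0.42 (standard error 0.22) became -0.03 without replicate 2. Leaving it out removes every array of slide 2, among them the Ang II+Los array that stood furthest apart. At 6 h Axl was 7.72 ± 0.33 in Control and 8.08 ± 0.29 under Ang II, a difference of 0.35 (standard error 0.23) in which slide 1 alone gave 1.16.

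Of the kinases, Lats2 had probes at chr15:36720090-36720149, printed 10 times, and chr15:36721751-36721810 (minus strand). At 3 h its log2 signal was 8.71, 8.21, 8.02 and 7.81 in Control. It was 8.55, 8.76, 8.29 and 8.23 under Ang II. Under Ang II+Los it was 8.13, 7.51, 8.25 and 8.11. The single low value of 7.51 belongs to the array that stood apart. Under Ang II+PD123319 it was 8.40, 8.42, 8.01 and 7.84, below Ang II on every slide.

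The Losartan comparison gave a Lats2 log2 fold change of -0.46 at 3 h (standard error 0.19, adjusted p = 0.427, limma), past both limits. It was -0.19 without replicate 2 and -0.47 without replicate 1, in neither case past both limits, and the mean was -0.84 over the slides of the first scan session and -0.08 over those of the second. The probes disagreed as well, with -0.81 (standard error 0.34) for the probe printed once and -0.10 (standard error 0.14) for the probe printed 10 times. The PD123319 comparison was more even. Its Lats2 differences at 3 h lay between -0.39 and -0.15 and at 6 h between -0.35 and -0.17, so that Lats2 was lower on all 8 slides, with log2 fold changes of -0.29 (standard error 0.19) and -0.27 (standard error 0.11), neither past both limits. The probes gave -0.31 and -0.27 at 3 h and -0.26 and -0.27 at 6 h. Ctgf and Lats2 were 2 of the 7 genes tested at both times that were lower in all 8 pairs of this comparison, beside 220 of 13617 genes (1.62%). Lats2 in the Ang II comparison gave 0.27 at 3 h (standard error 0.19) and 0.02 at 6 h (standard error 0.11). At 3 h the probe printed 10 times gave 0.36 (standard error 0.14) in this comparison and was past both limits on its own. The probe printed once gave 0.18 (standard error 0.34) and was not. Against Control, Ang II+PD123319 gave -0.02 at 3 h (standard error 0.19) and -0.25 at 6 h (standard error 0.11). At 6 h the probe printed 10 times and the probe printed once gave -0.21 and 0.25 in the Ang II comparison. For Ang II+PD123319 against Control they gave -0.47 (standard error 0.09) and -0.03 (standard error 0.19). Of these values only that of the probe printed 10 times was past both limits on its own.

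Stk3 encodes MST2, the kinase upstream of LATS, and had probes at chr7:70308307-70308366 and chr7:70309272-70309331 (minus strand). Its group means spanned little, 0.21 at 3 h and 0.18 at 6 h. The Ang II comparison gave 0.18 at 3 h (standard error 0.11), higher on all 4 slides, and 0.12 at 6 h (standard error 0.06), higher on 3 of 4. At 3 h the probes gave 0.08 and 0.27 in this comparison, and at 6 h 0.01 and 0.23. Losartan gave -0.21 against Ang II at 3 h (standard error 0.11), which was -0.10 without replicate 2, and 0.06 at 6 h (standard error 0.06). PD123319 gave -0.05 (standard error 0.11) and -0.06 (standard error 0.06).

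Yap1, whose protein is the effector of the pathway, had 1 probe at chr8:4846155-4846214 (minus strand). At 3 h its log2 signal was 7.89, 7.63, 8.07 and 8.24 in Control and 7.63, 7.21, 7.84 and 7.53 under Ang II. Under Ang II+Los it was 7.38, 7.67, 8.06 and 8.07, and under Ang II+PD123319 it was 7.81, 7.65, 7.84 and 8.17. Ang II was the lowest group on slides 2 and 4 and tied with Ang II+PD123319 on slide 3 at this precision, while on slide 1 Ang II+Los was lower still. At 6 h Yap1 was 8.84, 8.80, 8.41 and 7.95 in Control and 8.67, 8.57, 8.24 and 7.81 under Ang II. The groups overlapped at both times, because slides differed by up to 0.75 in their mean.

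The Ang II comparison gave a Yap1 log2 fold change of -0.40 at 3 h (standard error 0.13, a fold of 0.757, adjusted p = 0.33, limma) and -0.18 at 6 h (standard error 0.07, a fold of 0.886, adjusted p = 0.203). The 6 h value was not past the fold limit. Yap1 was lower on all 8 slides, with differences from -0.70 to -0.23 at 3 h and from -0.23 to -0.14 at 6 h. It was 1 of the 7 genes tested at both times with this pattern, beside 426 of 13617 genes (3.13%). In the PD123319 comparison, Yap1 was higher by 0.31 at 3 h (standard error 0.13; not past both limits without replicate 2 or 4) and 0.19 at 6 h (standard error 0.07), and against Control the PD123319 group gave -0.09 at 3 h (standard error 0.13) and 0.02 at 6 h (standard error 0.07). Losartan gave 0.24 (standard error 0.13) and 0.05 (standard error 0.07) against Ang II. The differences from Ang II share the Ang II arrays with the Ang II comparison, so that opposite signs are built into them in part. Without replicate 4 the Yap1 value of the Ang II comparison at 3 h was -0.30 and not past both limits.

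Tead1 encodes a TEAD factor that binds YAP, and had probes at chr1:170696714-170696773 and chr1:170690631-170690690 (plus strand). It was dim at 3 h, where the probes were well above background on 14 and 13 of 16 arrays. Both were so on all 4 arrays of Ang II and of Ang II+PD123319, but on 3 of 4 in Control. Tead1 thus entered the 3 h tests through groups that include Ang II, where its mean was highest. The 3 h log2 signal of Tead1 was 4.58, 4.03, 4.50 and 5.22 in Control and 4.93, 4.49, 4.85 and 5.52 under Ang II. Every slide was higher under Ang II, by 0.30 to 0.46, while the groups as a whole overlapped. The log2 fold change was 0.36 (standard error 0.13, a fold of 1.29, adjusted p = 0.338, limma), and both scan sessions gave like values, 0.41 and 0.32. The size depended on the scaling and the background, since it was 0.23 with scaling to the 75th percentile and 0.09 with a normexp background, neither past both limits. Without replicate 2 it was 0.33 and not past both limits, and the probes gave 0.55 and 0.18.

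The Tead1 difference in the 6 h Ang II comparison was 0.06 (standard error 0.07), with slide 1 lower. PD123319 gave -0.28 at 3 h (standard error 0.13) and -0.15 at 6 h (standard error 0.07) against Ang II. Losartan gave -0.24 (standard error 0.13) and -0.15 (standard error 0.07). Neither antagonist was past both limits for Tead1 at any time. Yap1 and Tead1 thus went in opposite directions in the Ang II comparison at 3 h, with lower and higher values on each of the 4 slides. For Tead1 this rests on a dim signal that met the filter under Ang II and not in Control.

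**Figure D3:**
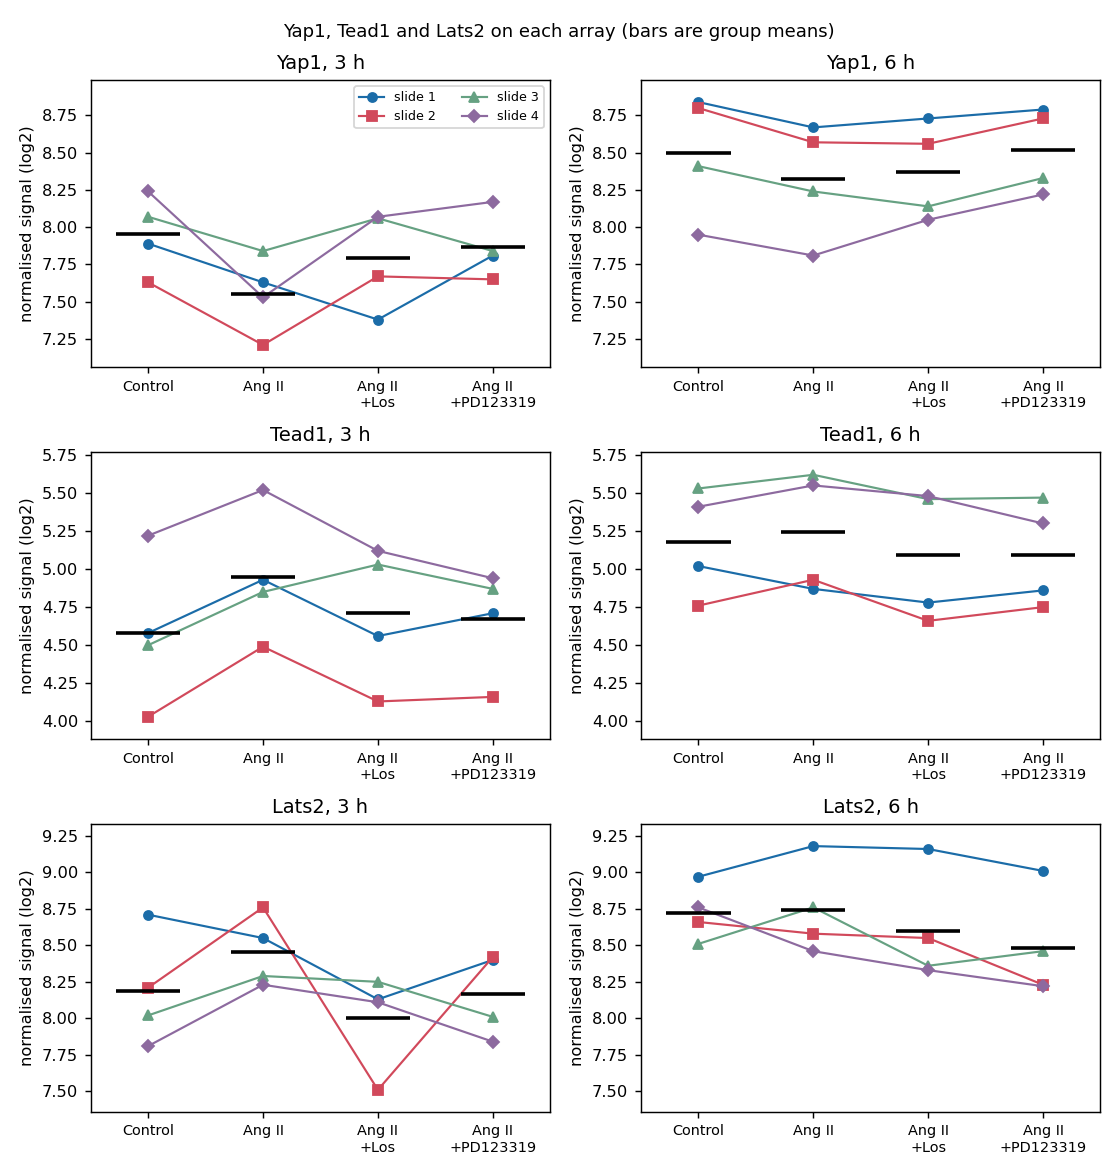
Normalised signal (vertical axis, log2) of Yap1, Tead1 and Lats2 in the 4 groups (horizontal axis) at 3 h (left) and 6 h (right), with lines joining the 4 arrays of a slide and black bars at group means. At 3 h every slide steps down from Control to Ang II for Yap1 and up for Tead1, and the low point of Lats2 at 7.51 is the Ang II+Los array of slide 2.

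Ajuba encodes a LIM-domain scaffold that binds LATS kinases. Its probe, printed 10 times, lies at chr15:32627943-32628002 (minus strand). At 6 h its log2 signal was 6.19, 5.56, 6.42 and 5.83 in Control and 6.30, 6.14, 6.46 and 6.19 under Ang II. The Control values spread more widely (SD 0.38) than those under Ang II (SD 0.14), and the low Control arrays on slides 2 and 4 gave the largest steps, 0.59 and 0.36, against 0.11 and 0.04 on slides 1 and 3. The log2 fold change was 0.27 (standard error 0.09, adjusted p = 0.147, limma), and it was not past both limits without replicate 2 (0.17) or without replicate 4 (0.25, standard error 0.12). At 3 h it was -0.05 (standard error 0.12). Losartan gave -0.29 against Ang II at 3 h (standard error 0.12, adjusted p = 0.427) and -0.13 at 6 h (standard error 0.09), lower on all 8 slides but past both limits at neither time. Lats2 and Ajuba were 2 of the 7 genes with that pattern, beside 111 of 13617 genes (0.815%). PD123319 gave -0.06 and -0.14 for Ajuba.

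Differences between slides were larger than those between groups for most of these genes. The slide means of Ctgf spanned 1.81 at 3 h and 1.51 at 6 h on the log2 scale, whereas its group means spanned 0.73 and 0.65. For Ankrd1 the slide means spanned 2.25 and 1.94 and the group means 0.55 and 0.21. Slide 1 was the highest slide of both genes at both times. Group means spanned as much as slide means, or more, for Amotl2, Lats2 and Stk3 at 3 h. Slides 1 to 4 of 3 h and of 6 h are different slides, and what the replicate numbers share between the times is not stated.

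**Figure D4:**
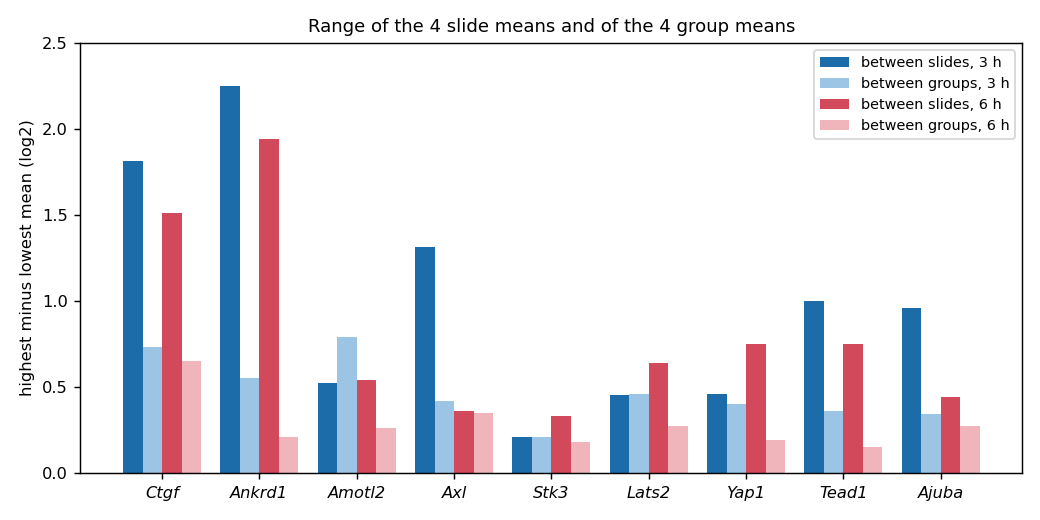
Highest minus lowest of the 4 slide means (dark bars) and of the 4 group means (light bars) for each gene, on the log2 scale, at 3 h (blue) and 6 h (red). The slide range of Ctgf is 1.81 at 3 h and 1.51 at 6 h, above its group ranges of 0.73 and 0.65.

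Whether a comparison differed between the times was tested with an interaction term over 13617 genes. By limma, 0 genes had an adjusted p under 0.05 in the 3 comparisons, and 979, 684 and 236 genes had an unadjusted p under 0.05 in the Ang II, Losartan and PD123319 comparisons. The count of 236 is below what a limit of 0.05 gives by chance. For Ctgf under PD123319 the 6 h value minus the 3 h value was 0.21 (standard error 0.21). For Yap1 in the Ang II comparison it was 0.23 (standard error 0.15). The values furthest from 0 relative to their error were those of Tead1 (-0.30, standard error 0.14) and Ajuba (0.32, standard error 0.15) in the Ang II comparison and of Stk3 (0.27, standard error 0.12) in the Losartan comparison. Their adjusted p was 0.674, 0.674 and 0.704 (limma). A passed limit at 1 time alone is thus not shown to differ from the other time for any of these genes.

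After slide means were removed, the 7 genes tested at both times could be set against each other over the arrays of each time, which share slides, scans and treatment groups. Ctgf and Lats2 had a Pearson correlation of 0.86 over the 16 arrays of 6 h and of -0.10 over the 16 arrays of 3 h. Lats2 and Axl had 0.79 at 3 h and 0.49 at 6 h, and Stk3 and Axl 0.77 and 0.61. The correlation of Yap1 and Stk3 was -0.59 at 3 h and -0.56 at 6 h. Over all 32 arrays the correlations of Ctgf with the other 6 genes lay between -0.30 and 0.20.

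Among 13335 genes, those most like Ctgf over the 32 arrays were none of the list. They were the unnamed probe A_64_P075357 (r = 0.86), Wdr77 (0.83), a cofactor of the arginine methyltransferase PRMT5, Ing2 (0.83), a chromatin reader, RGD1303127 (0.83), which RefSeq lists as Kansl2, and Pwp2 (0.82), a factor of ribosome assembly. The genes least like it were Tst (-0.85), which encodes rhodanese, Slc25a10 (-0.84), a mitochondrial dicarboxylate carrier, and the unnamed probe A_64_P124858 (-0.80). These genes were picked as the extremes of all genes, so that the size of r is a description only.

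The other genes of the pathway were listed from textbook knowledge. Of 16 further YAP and TAZ target genes, 14 were on the array and 11 were tested at 3 h and 13 at 6 h. At 3 h, 1 of the 11 was past both limits in each comparison, beside 11.0%, 10.1% and 2.64% of all genes in the Ang II, Losartan and PD123319 comparisons. At 6 h it was 3 of 13 in the Ang II comparison, beside 11.5%. In the Losartan and PD123319 comparisons it was 0 of 13, beside 0.900% and 3.79%. Against Control at 6 h, 2 of the 13 were higher and 4 lower past both limits under Ang II+PD123319, beside 13.5% of all genes. Under Ang II+Los it was also 2 higher and 4 lower, beside 11.4%. Against Control at 3 h, 0 of the 11 were higher and 3 lower under Ang II+PD123319, beside 831 of 13630 genes. Under Ang II+Los 1 was higher and 2 lower, beside 2724. These comparisons share the Control arrays with the Ang II comparison, and their genes are not named here.

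Igfbp3, which binds insulin-like growth factors, gave -0.51 in the Ang II comparison at 3 h (standard error 0.15). It was lower on all 4 slides and past both limits with any 1 replicate left out. In the PD123319 comparison it gave 0.36 (standard error 0.15), higher on all 4 slides, but was not past both limits without replicate 2 or replicate 4 (0.30 each). Myof, a membrane-repair gene, gave -1.03 in the Losartan comparison at 3 h (standard error 0.45), with slides at -1.02, -3.10, -0.01 and -0.01. Slides 1 and 2 carried this value, which was -0.35 without replicate 2, and it was not past both limits without replicate 1 or replicate 2.

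At 6 h in the Ang II comparison, Tgfb2, a TGF-beta ligand, gave -0.66 (standard error 0.25), with slides at -0.20, -0.75, -0.12 and -1.57. Gadd45a, a stress-response gene, gave -0.42 (standard error 0.19), with slides at 0.17, -0.86, -0.04 and -0.94. Slide 4 was the lowest for each, and without replicate 4 the values were -0.35 and -0.24. Neither gene was past both limits without replicate 2 (-0.63 and -0.27) or without replicate 4. Nt5e, the ecto-nucleotidase CD73, gave 0.41 (standard error 0.13), higher on all 4 slides, and was not past both limits without replicate 2 (0.33).

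Of 24 further Hippo pathway genes, 22 were on the array and 20 were tested at each time. In the Ang II comparison 1 of the 20 was past both limits at 3 h and 1 at 6 h, beside 11.0% and 11.5% of all genes. Sav1, the adaptor of MST kinases, gave 0.32 at 3 h (standard error 0.13), and Limd1, a LIM protein related to Ajuba, gave 0.35 at 6 h (standard error 0.14). Slide 2 gave the largest step of each, 0.84 and 0.92, and without replicate 2 the values were 0.15 and 0.16. Sav1 was also not past both limits without replicate 1 or replicate 3, nor Limd1 without replicate 1.

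The Losartan comparison had 2 of the 20 at 3 h, beside 10.1% of all genes, and 0 of 20 at 6 h, beside 0.900%. These were Limd1 (-0.58) and the kinase gene Map4k4 (-0.32), which gave -0.27 and -0.17 without replicate 2. Limd1 was also not past both limits without replicate 1, nor Map4k4 without replicate 4. The PD123319 comparison had 1 of 20 at 3 h, beside 2.64%, and 0 of 20 at 6 h, beside 3.79%. This was Frmd6, a FERM-domain gene upstream of the kinases, with -0.39 (standard error 0.18). Without replicate 4 it was -0.26, and without replicate 2 or 3 it was not past both limits either.

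Of the other 4 CCN family genes only Wisp1 was bright enough to be tested, with -0.33 at 3 h (standard error 0.15) and -0.37 at 6 h (standard error 0.10) in the Ang II comparison. At 3 h it was not past both limits without replicate 1, 2 or 4, nor at 6 h without replicate 2 or 4. None of these named genes had an adjusted p under 0.05 (limma, Benjamini-Hochberg over all genes). The median of the further targets was -0.16 in the Ang II comparison at both times and -0.11 and -0.02 under PD123319, beside -0.02 and 0.00 for all genes in the latter.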

How the data were processed

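Expression was measured on 32 one-colour Agilent rat arrays. The authors scanned the slides and wrote a processed intensity per spot with Agilent Feature Extraction 9.5.3.1, per the file headers. The deposited log2 values equal the log2 of that intensity, without scaling between arrays, in 99.4% of 561803 values of probes printed once (tolerance 0.001), and serve as an alternative. Their array medians range from 6.39 to 8.14. Of the deposited values 38.2% are blank, and this alternative tested 10778 genes at 3 h and 13162 at 6 h. The main fit tested 13630 and 16446, so that its counts are not like for like with those of this alternative.

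Here outlier spots were left out, dim spots of 3 h were set to the error of their signal as the scanner software did at 6 h, spots of a probe were averaged as log2, and the 16 arrays of each time were normalised by cyclic loess (3 iterations, span 0.7). A probe could have up to 2 gaps per time, and kept probes of a gene were averaged. Comparisons used limma 3.58.1 (R 4.3.3, data.table, version 1.17.8) on all genes, with the slide as a block and Benjamini-Hochberg adjustment; figures used Python 3.11.15 and matplotlib 3.10.9. Slide numbers pair the samples: deviations from group means on 1 slide correlated at 0.147 to 0.916 at 3 h and 0.551 to 0.826 at 6 h. The methods' t-test, run paired by slide, was an alternative. The fit was checked on simulated data. The 10 genes, the wider lists and the named genes were chosen with earlier results of these data known, all 10 genes being named, with up to 3 higher and 3 lower genes past both limits from each wider list and the 5 most and 3 least like Ctgf. Comparisons of the antagonist groups with Control, and with each other, were added later. Tables of the study's own results were not used.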

Additional observations from a re-analysis of the deposited data

Results flagged for a closer look

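In sets of 4 arrays or 4 within-slide differences, 1 of 72 sets of levels and 2 of 54 sets of differences of these genes held a value far from the other 3 by Dixon's criterion, where chance gives about 1 in 20. Ankrd1 read 5.87 (log2) on slide 1 of Ang II at 3 h, and between 3.75 and 3.91 on the other slides. Axl gave a difference of -1.59 on slide 2 at 3 h between Ang II+Los and Ang II, and between -0.10 and 0.10 on the others. Tead1 gave 0.18 on slide 3 of the same comparison, and between -0.40 and -0.36 on the others.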

How the results depend on the processing

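Over the 3 comparisons at both times and the alternatives that kept all replicates, 46 of 48 medians of the tested genes moved by less than the spread between slides, and 29 of 48 counts past both limits stayed within 1.5 times. No called gene changed sign, but the median of the Ang II comparison was -0.02 at 3 h with the deposited values and at 6 h without replicate 1. In the order 3 h Ang II, Losartan and PD123319 comparison, then 6 h Ang II and PD123319 comparison, the counts of 2, 1, 2, 1 and 1 became 0, 0, 0, 0 and 0 without the slide as a block. At 3 h the count of the Ang II comparison was 1 with 75th percentile scaling, the deposited values or the strict filter. That of the Losartan comparison was 2 with 75th percentile scaling, 3 without a filter, and 0 with normexp (offset 50), the brightest probe or the methods' t-test. That of the PD123319 comparison was 1 with normexp or the methods' t-test. At 6 h the Ang II count was 0 with 75th percentile scaling, normexp, the deposited values or the methods' t-test. The median of the Losartan comparison at 3 h was -0.08 with normexp and -0.10 with the brightest probe. With 1 replicate left out it ranged from -0.26 to -0.10, and the counts, in the order above, ranged from 1 to 2, 1 to 2, 1 to 3, 0 to 1 and 1 to 2. The cause of these changes was not tested. Ctgf in the PD123319 comparison stayed past both limits in 11 of 12 alternatives at each time.

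Over all genes, the counts past both limits of 1503, 1374 and 360 at 3 h and 1885, 148 and 624 at 6 h became 356, 341 and 62, and 528, 35 and 113, without the replicate block, and 658, 136 and 149, and 731, 59 and 287, with the methods' t-test, of which 0 passed after Benjamini-Hochberg adjustment. With 4 arrays per group the precision is limited, and Ankrd1, Amotl2 and Tead1 lay near background at 3 h.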
